A study of Mus musculus with 14 samples.

Results

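The m6A peaks described here lay in introns of wild-type mouse embryonic stem cells. They were the WT peaks that touched no exon of any gene in the count table and whose summit fell inside the span of at least 1 gene. By this rule 1334 of 17693 WT peaks (7.54%) were intronic, 13870 overlapped an exon and 2489 were intergenic. MeRIP-seq, in which fragmented RNA is pulled down with an m6A antibody and compared with input RNA, was run on WT E14Tg2a cells and on E14Tg2a cells of the genotype METTL14 R255K, with 2 IP and 2 input libraries for each genotype. E14Tg2a is a male mouse embryonic stem cell line, here grown with serum and LIF. In R255K cells an arginine of the endogenous METTL14 protein is replaced by a lysine, and edited cells were isolated as single colonies, so genotype and clone cannot be told apart. One list of peaks was given for each genotype, so no error between replicates exists for any peak. Expression and decay came from 6 further libraries of poly(A) RNA, 1 for each genotype after 0, 4 and 8 h of actinomycin D at 5 µg/ml, which stops transcription.

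The 6 libraries held 13812160 to 18813640 counts. All 10 stem cell markers looked at were above 59 FPKM (counts scaled to exon length and to the library total) in WT cells at 0 h, and their sum was 3110 FPKM in WT and 2547 in R255K. The sum hides larger moves of single markers. Tfcp2l1 stood at 59.7 FPKM in WT and 16.8 in R255K, Klf4 at 79.4 and 32.4, and Esrrb at 173 and 80.4. Only Utf1 was higher in R255K, at 379 and 581 FPKM. The 4 endoderm markers summed to 5.37 and 5.16 FPKM, the 5 fibroblast markers to 1.64 and 5.94, and the 4 markers of 2-cell-like cells to 0 and 2.73; their part in any result was not tested. Mettl14 itself, which encodes the altered subunit, stood at 5.27 FPKM in WT and 2.58 in R255K cells at 0 h.

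N6-methyladenosine is placed on nascent RNA by a nuclear complex of METTL3, which carries the catalytic activity, METTL14, which helps to hold the substrate, and WTAP with further adaptor proteins. The complex favours adenosines in a DRACH sequence, of which GGAC is the most common core, and most mapped sites in mature mRNA lie in long exons and near stop codons. Introns are spliced out and degraded soon after transcription. An intronic peak can report on pre-mRNA, on retained introns, on unannotated exons, or on transposon copies transcribed on their own or within a gene. Reads from a like sequence elsewhere in the genome may also be placed there. MeRIP-seq alone does not separate these.

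Sequences around the GGAC nearest to the summit are shown for peaks that recur below, since some of them are single-copy genomic sequence and others are repeated. Each is 28 bases of the mm10 genome on the strand of the host gene, written 5′ to 3′ with the GGAC in capitals. The first 3 belong to peaks in highly expressed hosts, and the next 4 to peaks with some of the highest fold enrichments.
Gsr, chr8:33692798-33692825, plus strand: ctgaagacaagaGGACtcttcgagacat
Sumo2, chr11:115535366-115535393, minus strand: gggacacaggatGGACgaatcgaatcct
Esrrb, chr12:86442384-86442411, plus strand: agtggatgtcctGGACcagctgtccctg
Gphn, chr12:78350945-78350972, plus strand: cgagctcagggaGGACagaaacctcccg
Arhgap21, chr2:20899912-20899939, minus strand: tatacccaggtcGGACgaccgatttgca
Sspn, chr6:145932923-145932950, plus strand: tatacccaggtcGGACgaccgatttgca
Sorcs2, chr5:36238858-36238885, minus strand: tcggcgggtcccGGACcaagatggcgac
On the main chromosomes the 28 bases of Sumo2 and Esrrb occurred once, those of Gsr in 2 places and those of Gphn in 4. The sequence shared letter for letter by Arhgap21 and Sspn occurred 12 times, and that of Sorcs2 3072 times.

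The first question was how many intronic peaks were still called in R255K cells. Of the 1334 intronic WT peaks, 1179 (88.4%, 95% Wilson interval 86.5 to 90.0%) were overlapped by no R255K peak, against 56.4% of all WT peaks. These are called lost, and the 155 (11.6%) that were overlapped by at least 1 bp are called kept, against 43.6% of all WT peaks. Among exonic peaks 47.9% were lost, a difference of 40.5 percentage points (Newcombe interval 38.5 to 42.3). Among intergenic peaks 86.7% were lost, and the difference of 1.68 points had an interval from −0.55 to 3.81 that included 0. Intervals over peaks cover counting error only, because peaks of 1 list are not replicates and several can lie in 1 gene or in copies of 1 sequence. By the same rule the R255K list held 218 intronic peaks, 0.163 times the WT number (interval 0.142 to 0.189), against 0.636 times for exonic and 0.161 times for intergenic peaks. Introns held 7.54% of the WT list and 2.31% of the R255K list. Of the 218, 154 overlapped an intronic WT peak, 16 an exonic WT peak and 48 no WT peak.

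Weak peaks were lost more often in every class, and intronic peaks were weak. Their median fold enrichment, the signal of IP over background at the summit, was 6.49 (interval 6.24 to 6.66), close to the 6.17 of exonic peaks. Their median −log10 q, in which q is the peak caller's corrected p-value, was 8.51 (8.34 to 8.79) against 24.8 in exonic peaks, and their median width was 280 bp against 414 bp. The fold enrichment was thus similar while the evidence behind each intronic peak was lower. All WT peaks were then put into 4 classes of equal size by −log10 q. In the class with the lowest values 3.87% of 646 intronic and 15.9% of 2561 exonic peaks were kept. In the next, 7.80% of 436 and 26.3% of 3221 were kept, and in the one above, 30.6% of 206 and 53.2% of 3834. In the class with the highest values the shares were 71.7% of 46 (57.5 to 82.7%) and 92.5% of 4254. The intervals of the difference between intronic and exonic peaks excluded 0 in all 4 classes, with 12.1, 18.5, 22.6 and 20.8 points more intronic peaks lost. Against intergenic peaks the interval included 0 in each class.

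**Figure D1:**
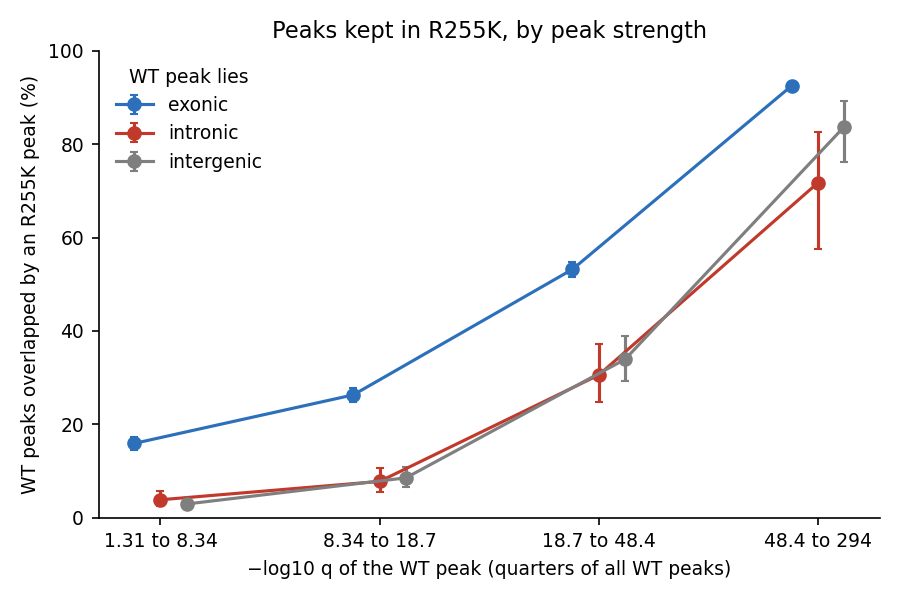
Percentage of WT peaks overlapped by an R255K peak (vertical axis) in 4 equal classes of all WT peaks by −log10 q (horizontal axis), for exonic, intronic and intergenic peaks, with 95% Wilson intervals. Intronic peaks rise from 3.87 to 71.7% and stay under exonic peaks, which rise from 15.9 to 92.5%.

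Kept intronic peaks were stronger in WT cells than lost ones. Their median fold enrichment was 8.32 (7.56 to 9.96) against 6.18 (6.07 to 6.49), and their median −log10 q was 23.8 against 8.14. At the 155 kept peaks the fold enrichment of the R255K peak over that of the WT peak had a median of 0.882 (0.784 to 0.996), and it was lower in R255K at 92 of them (59.4%, interval 51.5 to 66.8%). In kept exonic peaks the median was 0.797 and 70.6% were lower. The values at single kept peaks spread widely, from 0.201 to 5.24 times. Fold enrichments of the 2 lists come from separate calls of unknown depth.

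**Figure D2:**
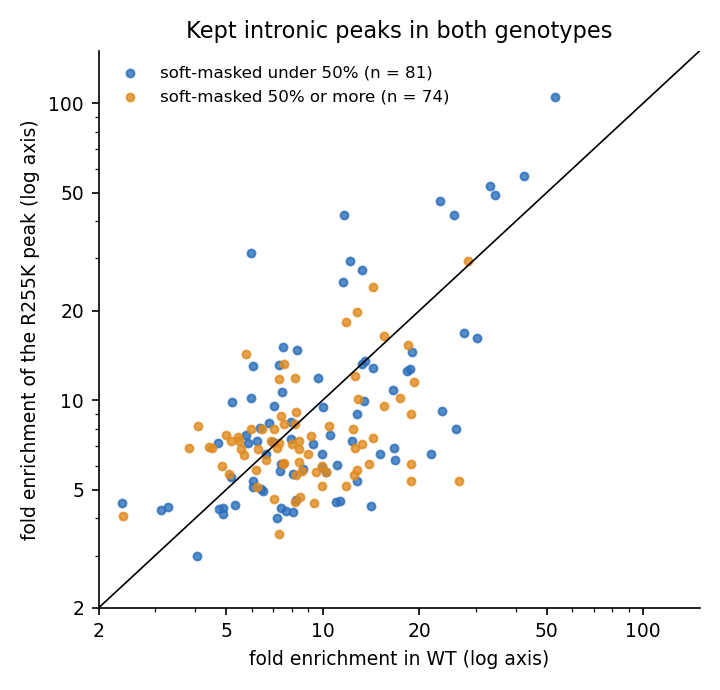
Fold enrichment of the 155 kept intronic peaks in WT (horizontal, log axis) and of the overlapping R255K peak (vertical, log axis); the line marks equal values and colours mark windows with under or at least 50% soft-masked bases. Most points lie under the line (92 of 155), while several of the strongest lie above it.

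Of the 6 strongest kept peaks 4 lay in windows without soft-masked bases, those of Gphn, Arhgap21, Sspn and Armc8. The strongest of all lay in intron 2 of Gphn (chr12:78350789-78351178), the gene of gephyrin, which anchors inhibitory synapses and takes part in molybdenum cofactor synthesis. Its fold enrichment was 52.9 in WT and 105 in R255K. Arhgap21, a GTPase-activating protein, had a peak in intron 5 (chr2:20899793-20900208) at 42.4 in WT and 56.8 in R255K. Sspn, encoding sarcospan, had one in intron 2 (chr6:145932720-145933101) at 34.4 and 48.9. Camk1d, a calcium/calmodulin-dependent kinase, had one in intron 5 (chr2:5379015-5379473) at 33.3 and 52.4. At these peaks the R255K value was the higher one. At Armc8, a subunit of the CTLH ubiquitin ligase (chr9:99493886-99494446), the values were 30.3 in WT and 16.2 in R255K, and at Orc1, the largest subunit of the origin recognition complex (chr4:108583924-108584788), 28.4 and 29.3. The Camk1d window was masked over 17.9% and the Orc1 window over its whole length.

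The genes around these kept peaks did not share a level of expression. Sspn was nearly silent, with 1, 0 and 1 counts in the WT libraries at 0, 4 and 8 h and 2, 8 and 3 in R255K. Gphn stood at 2.30 FPKM in WT and 1.91 in R255K at 0 h, Camk1d at 6.36 and 1.85, Arhgap21 at 7.61 and 4.67, Armc8 at 13.4 and 8.99, and Orc1 at 32.0 and 24.4. Part of the Gphn peak matched a transcript of another gene, Lars2, over 244 bases at 97.5% identity. A pair of further kept peaks, chosen after their values were seen, matched the same transcript, in Fgfr2 over 104 bases at 96.2% and in Gm26561 over 83 bases at 97.6%. Reads from such copies cannot be told apart from reads of the intron where the sequences are identical. The likeness of the Gphn, Arhgap21 and Sspn peaks to rRNA could be checked only in part, for want of a full rRNA reference, and rRNA was depleted from input RNA but not from IP RNA. Their enrichments are therefore given as called, without a reading of their source.

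The 6 strongest lost peaks all lay in soft-masked repeats. The highest was in intron 4 of Sorcs2, a sortilin-family receptor of neurons (chr5:36238365-36238971) (fold enrichment 47.4, −log10 q 135). It was followed by 1700011C11Rik at 31.5, a peak inside both Gm5592 and Gm44748 at 27.9, CT025617.1 at 25.4, 6530403H02Rik at 21.3 and Olfr54 at 20.6. All 6 windows were soft-masked over their whole length. Their hosts were silent or nearly so in WT cells at 0 h, with 37 counts for Sorcs2 (0.241 FPKM), 2 each for Gm5592 and Gm44748, and 0 for the other four.

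Repeats accounted for much of the intronic set. In 798 of 1334 intronic peaks (59.8%, interval 57.2 to 62.4%) at least 50% of the 201 bp around the summit was soft-masked in the reference, which marks interspersed and simple repeats. The share was 1.93% in exonic and 70.8% in intergenic peaks, and 51.4% of 2146 control windows placed 1000 bp to either side in the same introns. Of the repeat-rich peaks 9.27% were kept, against 15.1% of the others, a difference of 5.84 points (2.28 to 9.59). The 305 intronic peaks with under 10% masked bases were kept in 17.4% (13.5 to 22.0%), against 53.3% of exonic peaks of the same kind. In this set more intronic than exonic peaks were lost, by 35.9 points (31.2 to 39.9). Within the 4 classes of −log10 q, however, the interval of the difference between these unmasked intronic peaks and all exonic peaks excluded 0 in the lower 2, at 9.46 points (3.91 to 12.8) and 15.9 points (8.54 to 20.7). In the upper 2 it included 0, with 8.31 points (−5.57 to 21.5) for 49 peaks and −7.50 points (−8.33 to 18.4) for 11, none of which was lost.

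Many of these repeats were copies of a few sequences. When the members were aligned to one another, 701 of 1334 (52.5%) fell into 7 groups of at least 10 peaks, 62 fell into smaller sets and 571 matched no other member. The same sequences were found in 62.9% of intergenic peaks and in 0.865% of exonic peaks. The most frequent 28-base sequence around a GGAC is shown for the 5 largest groups, on the strand that carries the GGAC, because these sequences identify the groups.
Group 1: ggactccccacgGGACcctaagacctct
Group 2: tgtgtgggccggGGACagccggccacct
Group 3: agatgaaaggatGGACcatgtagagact
Group 4: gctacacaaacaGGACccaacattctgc
Group 5: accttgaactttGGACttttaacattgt
These stretches occurred 5138, 3370, 14241, 6584 and 299 times on the main chromosomes. They were carried by 63.2% of the peaks of group 1, 31.7% of group 2, 14.8% of group 3, 21.1% of group 4 and 9.52% of group 5, so they tag the groups rather than cover them. The repeat families are named by number only.

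The groups differed in how many of their peaks were kept. None of the 145 peaks of group 2 was kept, which allows a share of up to 2.07% by a limit of 3 counts (Wilson upper limit 2.58%), and 2 of 114 in group 4 (1.75%, 0.48 to 6.17%). Group 1, the largest, kept 9 of 185 (4.86%, 2.58 to 8.99%), and group 3 kept 14 of 135 (10.4%, 6.28 to 16.7%). Group 5 kept 32 of 84 (38.1%, 28.4 to 48.8%), above the 15.5% (12.9 to 18.5%) of peaks outside the groups. Groups 6 and 7, with 20 and 18 peaks, kept none, which allows up to 15.0 and 16.7% by 3 counts (Wilson 16.1 and 17.6%). The median fold enrichments of the 5 largest groups lay between 5.99 and 7.43. Their median −log10 q differed more, at 10.1 in group 1, 8.51 in group 2, 8.16 in group 3, 5.91 in group 4 and 12.7 in group 5. Intergenic peaks of the same sequences gave 6.72% kept of 476 in group 1, 0.298% of 336 in group 2, 16.4% of 201 in group 3, 1.97% of 355 in group 4 and 29.8% of 124 in group 5, the same order as inside introns.

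The groups also differed in the genes that held them. In group 2 the host was under 1 FPKM in WT cells at 0 h for 86.2% of peaks and in group 1 for 87.6%, whereas in group 5 this held for 25% and outside the groups for 35.2%. The median host level was 0.01 FPKM in groups 1 and 2, 1.44 in group 3, 0.06 in group 4 and 5.10 in group 5. GC content of the windows had a median of 63.2% in group 1 and 65.2% in group 2, against 41.5% in group 5. The Orc1 peak belonged to group 5 and the Sorcs2 peak to group 2.

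**Figure D3:**
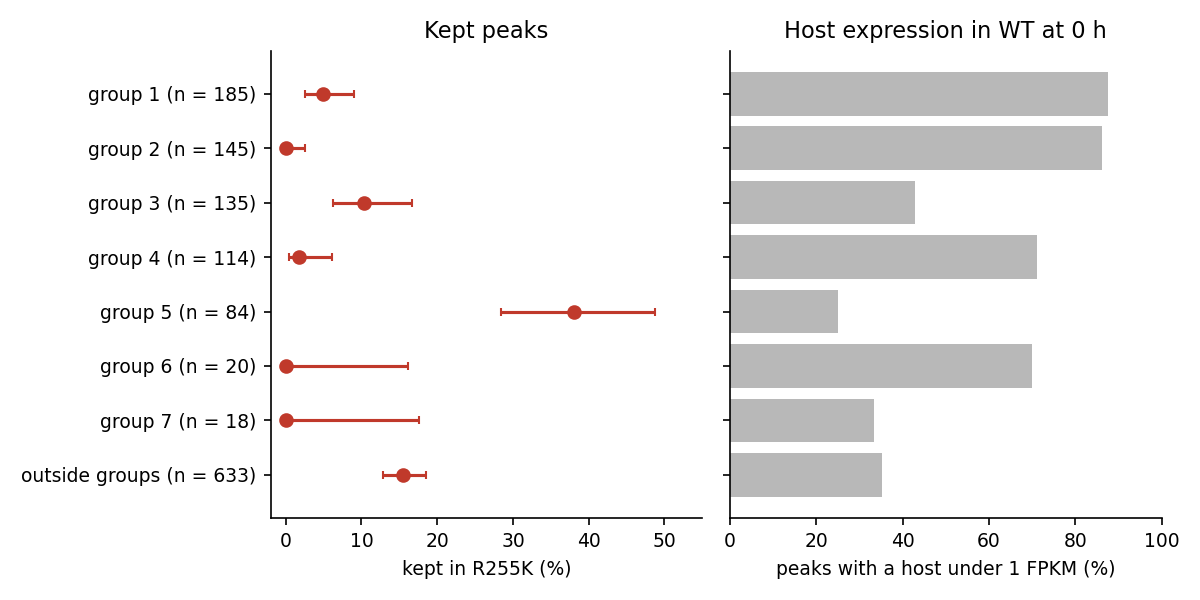
Left, percentage of intronic WT peaks kept in R255K in each of 7 groups of alike sequences and outside them, with 95% Wilson intervals; right, percentage of the same peaks whose host gene was under 1 FPKM in WT at 0 h. Group 5 has the highest kept share (38.1%) and the lowest share of hosts under 1 FPKM (25%).

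A further set of peaks matched a transcript, coding or not, of a different gene. Outside the groups, 84 of 633 peaks aligned over at least 80 bases at 95% identity or more to a GENCODE transcript whose gene lay elsewhere. Of these 26.2% (18.0 to 36.5%) were kept, against 13.84% (11.2 to 17.0%) of the 549 that matched none. Some matches had no mismatch. The peaks in Meikin (Oser1, 286 bases), Cbfa2t3 (Ddx19a, 265 bases) and Prcp (Zbtb14, 244 bases) were of this kind, and all 3 were lost. These examples were chosen after their values were seen.

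The GGAC core was searched on both strands of the 201 bp around each summit, for the 1272 intronic peaks whose host genes all lay on 1 strand. On the host strand 72.1% (69.6 to 74.5%) of windows held GGAC and on the opposite strand 55.6%. Control windows in the same introns held it in 40.6 and 42.9%, with no excess on the host strand, and exonic peaks in 79.0 and 46.4%. The strand difference separated the repeats from the rest. Outside the groups 68.1% of 595 windows held GGAC on the host strand and 40.8% on the opposite one, whereas inside the groups the shares were 75.6 and 68.5%. The single groups differed, however. Group 1 held it in 96.1% of windows on the host strand and 97.2% on the other. The shares were 90.8 and 96.5% in group 2, 41.8 and 57.3% in group 4 and 100 and 84.2% in group 6. Groups 3, 5 and 7 held it more often on the host strand, at 60 and 38.5%, 67.5 and 26.25%, and 83.3 and 22.2%. The group 1 sequence printed above lay on the host strand in 30 of 110 peaks that carried it (27.3%). Kept peaks held GGAC in 71.5% on the host strand and 32.6% on the opposite strand, and lost peaks in 72.2 and 58.5%.

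The longer GGACT, which contains GGAC, was present on the host strand in 37.4% of intronic, 15.4% of control and 38.9% of exonic windows. GAAC, which contains no GGAC, was present in 50.7, 46.6 and 61.0%. Outside the groups GAAC, too, was more frequent on the host strand, at 58.8% against 42.2%. Outside the groups kept and lost peaks were alike in GGAC on the host strand, 71.1% of 90 (61.0 to 79.5%) and 67.5% of 505 (63.3 to 71.5%). A match is only a run of letters within the window.

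**Figure D4:**
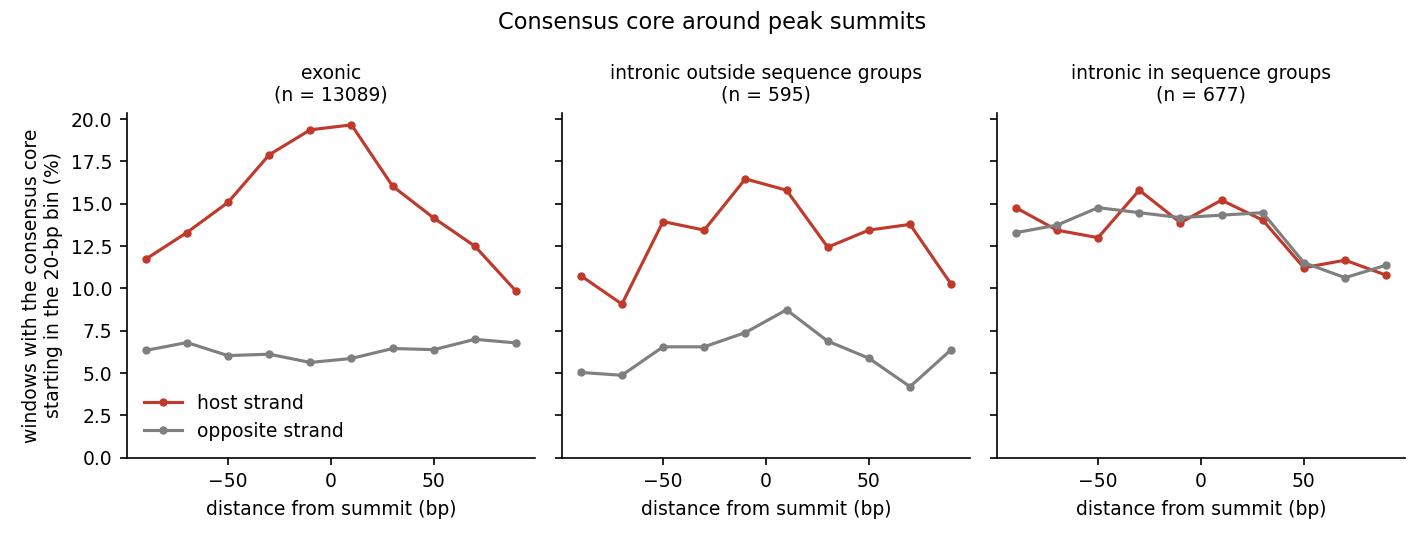
Percentage of windows in which the 4-letter consensus core starts in each 20-bp bin (vertical axis) against the distance from the summit along the host strand (horizontal axis, bp), for the host and the opposite strand. Exonic peaks and intronic peaks outside the sequence groups have more of it on the host strand, with a rise towards the summit that is smaller in introns, while intronic peaks in groups have about equal shares on both strands.

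Many intronic peaks lay far from an exon, in introns with a median length of 22690 bp. The median distance from the summit to the nearest exon was 3866 bp (3436 to 4332), 13.4% lay within 500 bp of an exon and 26.8% were more than 10000 bp away. The 305 peaks with under 10% masked bases had a median of 1114 bp (797 to 1454). Kept peaks were closer than lost ones, with a median of 2280 bp (1636 to 2738) against 4284 bp (3821 to 4843). They also lay in shorter introns, with a median of 11378 bp (8014 to 20068) against 24093 bp (21732 to 26535). Whether the distance follows from intron length was not tested. The share kept was 14.5% within 500 bp, 17.4% from there to 2000 bp, 9.98% up to 10000 bp and 7.84% beyond. In the first intron 14.3% of 315 peaks were kept and in later introns 10.8% of 1019. The difference in the share lost, first minus later, was −3.49 points, and its interval of −8.13 to 0.51 included 0. Some intronic peaks lay on exons of other annotations. RefSeq placed an exon at 158 of them (11.8%) and GENCODE vM21 at 36, and of the 158 on a RefSeq exon 24.7% (18.6 to 32.0%) were kept, against 9.86% (8.29 to 11.7%) of the rest.

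All chromosomes with at least 32 members had a kept share between 0 and 23.8%. Chromosome 17 stood highest, with 15 of 63 kept, and none of the 58 members on chromosome X was kept, which allows up to 5.17% by 3 counts (Wilson upper limit 6.21%). The 58 were 10.2% of all WT peaks on that chromosome.

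The 1334 peaks lay in 1012 host genes, of which 747 held 1 peak, 175 held 2 and 90 held at least 3. The most, 11, lay in Gm26573 on chromosome 4, of which 4 were kept. C230088H06Rik, on the same chromosome, held 8, of which 7 lay in the overlapping gene Gm26624 as well, and the same 3 were the kept ones of both. All 3 genes were at or under 0.12 FPKM in WT cells at 0 h. Of the 11 peaks of Gm26573, 5 were in sequence groups, and some others matched transcripts of other genes. A kept one matched Rex2 over 208 bases at 99.5% identity. A kept peak of Gm26624 and C230088H06Rik matched Zfp992 over 316 bases at 98.4%. The signal may thus not all come from RNA of the listed hosts. Gm20388 on chromosome 8 held 8, all lost. Its span in the count table contains an intron of 4384418 bp that runs across many other genes, and 7 of its 8 peaks lay in a second gene as well, such as Zc3h18 or Def8. St6galnac3, which encodes a sialyltransferase, held 7 peaks in introns 2, 3 and 4, all lost and none in a sequence group. Their fold enrichments were 5.33 to 8.48. St6galnac3 counts were 164, 105 and 56 in WT at 0, 4 and 8 h and 23, 33 and 35 in R255K.

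Hosts above 10 FPKM in WT cells at 0 h held 229 intronic peaks, with a median fold enrichment of 5.98 and a median −log10 q of 10.3. Among hosts whose peak reached the median enrichment of intronic peaks, Esrrb, Slc2a3, Atp5o, Gsr and Sumo2 were among the most expressed. Esrrb, a nuclear receptor of the pluripotency network, had peaks at 7.05 and 7.98 in intron 2, both lost. Slc2a3, a glucose transporter, had one at 6.50 that was lost and one at 10.97 that was kept at 4.54 in R255K. Gsr, glutathione reductase, had one at 6.52 that was kept at 4.95. The peak shared by Itsn1 and Atp5o, genes on opposite strands, was at 6.65 and lost, and that of Sumo2, a ubiquitin-like modifier, was at 7.17 and lost.

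These hosts moved in different ways. In WT cells Esrrb stood at 173, 106 and 36.7 FPKM at 0, 4 and 8 h, and in R255K cells at 80.4, 63.2 and 60.1. The R255K level was thus lower at 0 and 4 h and higher at 8 h. Sumo2 stood at 72.2, 138 and 208 FPKM in WT and 32.2, 197 and 105 in R255K, with no steady order.

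Of all genes 1.93% held an intronic peak, and of the 11648 genes at 1 FPKM or more in WT cells at 0 h 4.34%. In gene lists this short, counts of 0 or 1 are near these shares. None was a host among 18 m6A writers, readers and erasers, 27 splicing factors, 18 genes of Nodal, BMP and Smad signalling and 12 long noncoding RNAs. Of 35 chromatin regulators 4 were hosts, with 10 peaks of which 5 were kept. Jarid2, a subunit of Polycomb repressive complex 2, had a kept peak in intron 9 at 12.2 in WT and 29.3 in R255K (chr13:44869480-44870037). Part of that peak matched a transcript of another gene, Gm26905, over 95 bases at 97.9% identity, so its signal may not all come from Jarid2 RNA. Tet1, which oxidises 5-methylcytosine, had a lost peak at 4.73 located 97 bp from an exon, and Arid1b, a subunit of the BAF remodelling complex, lost peaks at 9.02 and 8.06. Chd1, a chromatin remodeller, was credited with 6 peaks of which 4 were kept, but all 6 lay in an intron of 1601721 bp in the count table's gene model and 3 of them on RefSeq exons, so they may not belong to Chd1 RNA. Of 25 pluripotency genes 2 were hosts, Esrrb with the peaks above and Sall4, a zinc-finger factor, with 1 peak at 3.19, all lost.

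Of 20 long genes of neuronal adhesion and synapses 10 were hosts, with 31 peaks. None was kept, which allows a share of up to 9.68% by a limit of 3 counts (Wilson upper limit 11.03%). Over all intronic peaks 11.6% were kept, over the repeat-rich ones 9.27% and over those with a host of up to 0.1 FPKM 4.28%. The shares of repeat-rich peaks and of peaks in such hosts lie within both limits, so 0 of 31 does not set this list apart. Dmd, the dystrophin gene, held 6 peaks between 5.49 and 16.6, Cntnap2, a neurexin-related adhesion molecule, 5 between 2.84 and 7.32, Sorcs2 4, and Cntn5, a contactin, 4 between 5.33 and 8.65. Dmd was at 2.58 FPKM in WT at 0 h and the other 9 at or under 0.241, and Cntn5, Ctnna3 and Grm7 were among those listed at 0. Of the 31 peaks 28 lay in windows with at least 50% masked bases. This list was chosen with earlier results of these data known.

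At the level of poly(A) RNA 506 of the 1012 hosts (50%) were at 1 FPKM or more in WT cells at 0 h, against 22.2% of all genes. For 690 of 1334 peaks (51.7%) the host was under 1 FPKM, and for 282 it was listed at 0 counts, against 77.8% of all 52459 genes under 1 FPKM. The median level of the 1012 hosts was 1.00 FPKM (0.76 to 1.29). It differed sharply between the 475 hosts that also had an exonic WT peak, at 3.84 (2.99 to 4.603), and the 537 with intronic peaks only, at 0.05 (0.03 to 0.08). Genes with exonic peaks only, 8765 in all, had a median of 4.41. The kept share of intronic peaks was higher with host level, at 4.28% (2.79 to 6.52%) up to 0.1 FPKM, 8.97% up to 1, 16.1% up to 10 and 21.0% (16.2 to 26.7%) above. Outside the sequence groups the trend was smaller, with 11.7% (8.08 to 16.5%) up to 1 FPKM, 17.9% up to 10 and 17.1% (12.02 to 23.7%) above, and the intervals overlapped.

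**Figure D5:**
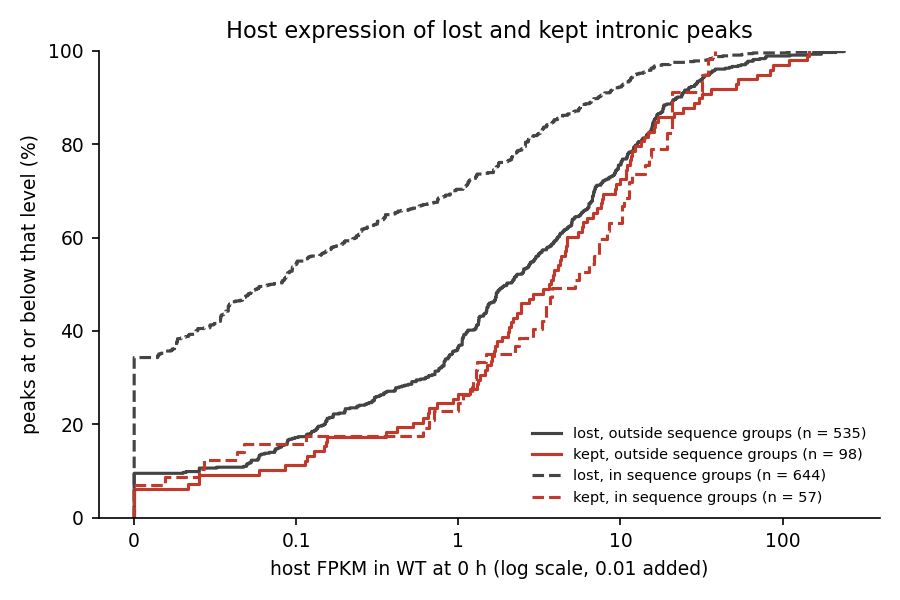
Cumulative percentage of intronic peaks (vertical axis) by host level in WT at 0 h (FPKM, horizontal log axis with 0.01 added), for lost and kept peaks inside and outside the sequence groups. Lost peaks in groups stand apart to the left; lost and kept peaks outside the groups, with medians of 1.98 and 3.67 FPKM, run close together.

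At 0 h host transcripts were on balance lower in R255K than in WT cells. Of the hosts, 505 passed a mean of 1 FPKM over both genotypes. On the log2(FPKM + 1) scale the median ratio R255K to WT was −0.19 (−0.25 to −0.12), against 0.05 over the 11869 genes tested. R255K was at least 2-fold higher in 20 (3.96%) and at least 2-fold lower in 60 (11.9%), against 6.44 and 5.92% of all genes tested. With a pseudocount of 0.1 the shares were 7.33 and 20.2%, against 9.64 and 9.57% of all genes. After correction for GC content 7.92% were lower, against 4.20% of all genes, and the median was −0.12. Each level comes from 1 library, so these counts have no replicate check. Hosts with a kept peak had a median of −0.20 and hosts without one −0.19.

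The host genes were long, and gene span moved with this difference. The hosts tested spanned a median of 70.4 kb (64.5 to 80.2) and the other genes tested 17.7 kb. Among genes of at least 100 kb the median log2 ratio was −0.26 in 184 hosts and −0.26 in 937 other genes, and from 50 to 100 kb it was −0.24 in 144 and −0.18 in 1403. From 20 to 50 kb it was −0.09 (−0.21 to 0.01) in 124 hosts and 0.01 in 2923 others, and under 20 kb −0.05 (−0.49 to 0.20) in 53 and 0.17 (0.15 to 0.18) in 6101. In all 4 classes the interval of the hosts held the median of the other genes, and its width in the classes under 50 kb leaves room for a difference. As these are bulk samples, fewer cells of a type and less RNA per cell cannot be told apart.

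Named hosts illustrate the spread at 0 h. Tet1 stood at 53.1 FPKM in WT and 13.4 in R255K, a log2 ratio of −1.91, and Camk1d at −1.37, Sumo2 at −1.14 and Esrrb at −1.10. Dmd was at −0.92 (2.58 and 0.900 FPKM). Sall4 at 0.10, Jarid2 at −0.13 and Gphn at −0.18 were nearly level. Taf5l, a subunit of a histone acetyltransferase complex, was at 0.45.

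Decay could be estimated for 253 of the 1012 hosts, those with enough counts whose share of the RNA pool fell with time in both genotypes. On FPKM scaled to summed counts, WT hosts had a median half-life of 3.07 h (2.77 to 3.44) and R255K hosts one of 8.26 h (7.08 to 9.59). The ratio R255K to WT had a median of 2.30 (2.156 to 2.46), against 1.98 over the 5504 genes estimated. It was over 1.5 in 197 hosts (77.9%), against 68.8% of all, and under 1/1.5 in 8 (3.16%), against 5.78%. The direction rests on the scaling. With TMM factors the median ratio was 2.03 in hosts and 1.76 in all genes, and scaled to ribosomal protein genes it was 2.87 and 2.51. With levels set relative to Gapdh, however, it was 0.546 in hosts and 0.549 in all genes. Gapdh itself was at 13.81, 3.91 and 41.3 FPKM in WT at 0, 4 and 8 h and at 5.12, 10.2 and 24.1 in R255K. Why Gapdh moved in this way was not tested.

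Hosts with intronic peaks only, 36 of 537, had a median ratio of 1.93 (1.46 to 2.55), and hosts with an exonic peak as well, 217 of 475, one of 2.34 (2.18 to 2.52). Genes with exonic peaks only had 2.09 (2.04 to 2.14) and genes with no WT peak 1.51 (1.45 to 1.58). The interval of the first set covered that of genes with exonic peaks and met that of genes without a peak. Hosts with a kept peak had a median of 2.46 (1.94 to 3.14) and those without one 2.26 (2.08 to 2.42). By gene span the hosts had no steady order against the other genes. The medians were 2.34 against 1.72 under 20 kb, 1.74 against 2.05 from 20 to 50 kb, 2.27 against 2.35 from 50 to 100 kb and 2.47 against 2.40 above.

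The named hosts with an estimate were longer-lived in R255K on this scale. The half-life of Chd1 RNA went from 2.84 h in WT to 11.4 h in R255K, a ratio of 4.00 (counting interval 3.45 to 4.65). Its gene model in the count table holds an intron of 1601721 bp, so the peaks credited to Chd1 may not belong to the RNA measured. Arhgap21 went from 1.95 to 6.29 h (ratio 3.23, 2.68 to 3.88), Esrrb from 4.36 to 14.3 h (3.28, 2.93 to 3.68) and Arid1b from 2.02 to 5.48 h (2.71, 2.32 to 3.17). Jarid2, with a kept peak, went from 4.30 to 10.6 h (2.46, 2.27 to 2.67), and Orc1, with 2 of 3 peaks kept, from 3.43 to 5.73 h (1.67, 1.46 to 1.91). Gphn had a ratio of 1.83 with an interval of 0.903 to 3.71 that included 1. Esrrb, Arid1b, Chd1, Arhgap21, Jarid2 and Gphn also carried exonic WT peaks, whereas Orc1 did not.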

How the data were processed

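MeRIP-seq and an actinomycin D time course of WT and R255K mESCs were analysed from processed files (14 libraries). According to the methods, the authors removed rRNA reads with Bowtie2 2.2.6, aligned the rest to mm10 with HISAT2, kept unique reads (Picard 2.16.0, SAMtools 0.1.09) and called peaks with MACS2. IP RNA was total RNA, and only input RNA was depleted of rRNA. The deposited peak lists give the fold enrichment and the −log10 q of each peak. How the 2 replicates were combined is not given in the sources used here, and the read depth behind the peaks is unknown. The authors deposited raw counts per gene, with exon coordinates. The counting tool is not given in the sources used here.

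Members and gene lists were chosen with earlier results of these data known. Exons and spans came from the count tables, sequences and soft-masking from the GRCm38 (mm10) RefSeq genome. A peak was kept if an R255K peak overlapped it by 1 bp. Shares carry Wilson, differences Newcombe and medians order-statistic intervals (95%). Sequence groups were built after seeing the data, with BLAST+ 2.17.0 (e-value up to 1e-20, at least 100 bp, at least 10 peaks). Repeat families were not named here. FPKM used summed counts as library size. Ratios at 0 h used a pseudocount of 1 on genes with a mean of at least 1 FPKM, and half-lives the mean of the decay constants from 0 to 4 h and from 0 to 8 h, with later counts under 3 set to 3. With 1 library for each genotype and time, no p-value was computed. TMM factors came from edgeR 4.0.16 (R 4.3.3), the rest from Python 3.11.15 with pandas 2.3.3, scipy 1.17.1 and pysam 0.24.0. Half-lives at known library sizes, Newcombe and median intervals and the classing of peaks were tested on simulated data. The scaling to summed counts was not tested in this way. Named genes were the hosts of the 6 strongest intronic peaks and of the 6 strongest kept ones, the 5 hosts with most peaks, the 6 most expressed hosts with a peak at or above the median enrichment, and hosts in the gene lists, of which some are not reported here. The 6 strongest lost peaks and the transcript matches were added after their values were seen.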

Additional observations from a re-analysis of the deposited data

How the results depend on the processing

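The share of intronic peaks lost, 88.4%, was 90.7% when R255K peaks had to cover 50% of it, 85.1% from a −log10 q of 5 upwards and 82.2% when only the summit had to avoid exons. Among alternatives chosen after seeing the data it was 90.2% on no GENCODE or RefSeq exon, 84.5% outside the sequence groups, 86.2% there without matches to other transcripts and 82.1% with a host of at least 1 FPKM. The ratio of R255K to WT numbers, 0.163, was 0.210 with hosts counted once, 0.331 with only the summit outside exons and 0.269 under 10% masked bases (added). GGAC on the host strand, 72.1% of windows, was found in 51.5% within 50 bp (controls 22.1%), in 90.6% on either strand (controls 65.0%) and in 67.7% under 10% masked bases. The median host level, 1.00 FPKM, was 0.0484 in hosts without an exonic peak. The median log2 ratio of −0.19 was −0.039 with no filter on FPKM, where all genes were at 0.02. The half-life ratio, 2.30, was 2.03 with TMM factors, 2.87 scaled to ribosomal protein genes, 2.56 from the 8 h library alone and 2.09 from 5 FPKM, and it turned to 0.546 when scaled to Gapdh. The cause of these shifts was not tested. Of 35 alternatives, 15 stayed within the interval of the value as reported.

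No paired analysis was possible because each genotype has 1 peak list and 1 library at each time, so there were no replicates to block or to leave out.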
